A study of Mus musculus with 2 samples.

Results

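The complement system is a cascade of serum proteins that marks microbes and damaged cells for uptake and can open pores in their membranes. It is started by antibody-bound C1q (classical pathway), by lectins that read sugars (lectin pathway) or by slow spontaneous activation of C3 (alternative pathway), and all routes meet at the convertases that cleave C3 and C5. Hepatocytes make most of the plasma components, while C1q, ficolins, properdin and the cell-bound receptors come mainly from macrophages and other myeloid cells.

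The 35 genes described here were chosen by name as components, regulators and receptors of this cascade, and every probe carrying one of these names was used. Of the 35 names, 34 were on the array, with 58 probes of 56605 and 1 spot per probe, among 37074 gene names in all. *C1s* had no probe of that name. RefSeq gives *C1s* as a synonym of *C1s1*, which was on the array and is described separately. Of the 34 genes, 31 were detected, which means that at least 1 probe was well above background on at least 1 array, and 45 of the 58 probes were detected. *Fcnb*, *Cfd* and *Itgax* were dim on both arrays.

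The array comparison addressed which genes are altered in hepatocytes when *Drp1* is deleted. The data were 1 array per genotype of primary hepatocytes from C57BL/6 mice. *Drp1*LiKO mice lack dynamin-related protein 1, the GTPase that divides mitochondria, through a Cre recombinase under the hepatocyte albumin promoter (Alb-Cre Tg/+ *Drp1* flox/flox). The controls were *Drp1* flox/flox littermates without Cre in the study's methods and wild type in the labels. The labels give neither the age and sex of these animals nor whether RNA was pooled. Livers were perfused with collagenase, the cells pelleted at low speed were plated on collagen at 300000 per well, unattached cells were washed away at 4 h, and RNA was taken 24 h after seeding with no further treatment in either genotype. Such a preparation can retain other liver cells, and an array of a cell mixture cannot tell fewer cells of a type from less RNA per cell.

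Neither genotype was replicated, so every difference given here describes these 2 arrays and has no test. Signals are given corrected for background but not scaled between arrays, in arbitrary units that cannot be compared between probes. Each log2 ratio is *Drp1*LiKO minus control after subtracting the 75th percentile of each array, which made it 0.18 lower than the ratio of the unscaled signals. A ratio was called past the threshold at a Z score of 2 over all detected probes, which lay at a log2 ratio of 1.30 (2.46-fold) for higher and -1.31 for lower signal. The share of the 56600 probes that stood well above background was 48.2% for control and 52.1% for *Drp1*LiKO, and no spot was saturated. Over all 20165 detected genes the median log2 ratio was -0.05, and the middle 50% lay between -0.27 and 0.21. The targeted gene, *Dnm1l*, fell from 2602 in control to 1217 in *Drp1*LiKO at its bright probe, a log2 ratio of -1.28 that was just short of the threshold (Z score -1.95), and its dim probe read 22.8 and 20.9 (log2 ratio -0.31). Whether either probe lies in the deleted part of *Dnm1l* was not determined here.

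The probes that carried the largest differences were 60-base oligos. The first 30 bases of each are shown, so that what was measured can be seen, with mouse mm9 positions as the array files give them. The exon or UTR of each probe was not determined here.
C1qa, chr4:136452409-136452468, minus strand: ccggccagctttctcagccattcggcagaa
C1qb, chr4:136436578-136436637, minus strand: attctggggactacggggctacacagaaag
C1qc, chr4:136445766-136445825, minus strand: tctgggaaccacctaatggtattattcctg
Fcna, chr2:25480749-25480808, minus strand: tacagctcattccaggtatctgaagaacag
Cfp, chrX:20502742-20502801, minus strand: ggggcagaagctggtggtggaagagaaacg
Cd55, chr1:132335716-132335775, minus strand: ctacatatgaacaggttttgtacttcagac

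Of the 31 detected genes, 6 were higher in *Drp1*LiKO past the threshold: *C1qa*, *C1qb*, *C1qc*, *Fcna*, *Cfp* and *Cd55*. None was lower. Among all detected genes, 3.5% were higher and 2.81% lower past the same threshold. All 6 belong to a list of immune genes that the study drew from these same arrays, so their direction is not independent evidence. The 7th complement gene of that list, *C2*, was higher by 0.92 on the log2 scale and did not reach the threshold. None of the 24 detected genes outside that list passed, and their median log2 ratio was 0.25. With a normexp background correction of the raw signals the ratios were smaller, at 1.90 for *C1qa*, 1.64 for *C1qb*, 2.11 for *C1qc*, 1.27 for *Fcna*, 1.19 for *Cfp* and 0.96 for *Cd55*, all still past the threshold of that setting. *Cfp* did not pass when dim signals were left without a floor.

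**Figure D1:**
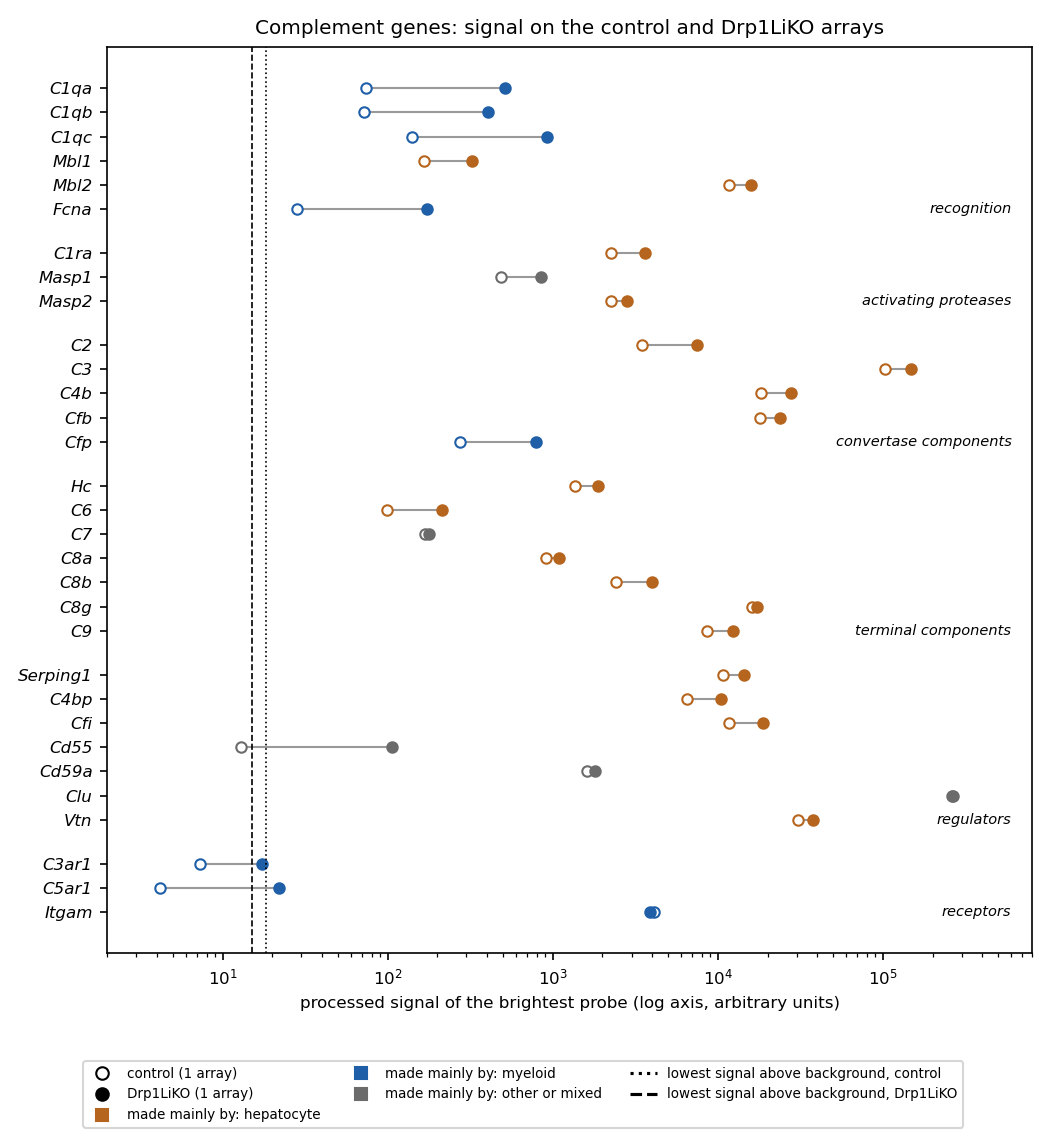
Processed signal of the brightest probe of each of the 31 detected complement genes, on a log axis in arbitrary units, with open circles for the control array and filled circles for the Drp1LiKO array. Colors mark the cells that mainly make each gene, and vertical lines mark the lowest signal well above background on each array. The C1q chains rose from 72.0 to 139 in control to 408 to 917 in Drp1LiKO, while the pairs of most hepatocyte genes lie close together.

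Recognition molecules held the largest differences among genes measured on both arrays. *C1qa*, *C1qb* and *C1qc* encode the 3 chains of C1q, the classical pathway sensor that binds antibody on surfaces. *C1qa* read 73.6 in control and 516 in *Drp1*LiKO, a log2 ratio of 2.63 (6.18-fold). *C1qb* read 72.0 and 408, a log2 ratio of 2.32 (4.99-fold). *C1qc* read 139 and 917, a log2 ratio of 2.53 (5.79-fold). The chains thus moved by similar amounts. Their probes lie within 15.9 kb of chromosome 4, and their ratios spanned 0.31, against an expected spot SD of 0.14 for each ratio. That SD comes from probes printed many times on the array and covers only the noise between spots. The 2nd *C1qc* probe, designed to another transcript (chr4:136447831-136447890), was dim on both arrays at 3.96 and 3.26.

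*Fcna* encodes ficolin A, a lectin pathway sensor made by macrophages of liver and spleen. It read 28.1 in control and 173 in *Drp1*LiKO, a log2 ratio of 2.44 (5.44-fold, expected spot SD 0.29). The control signal was not far above the lowest signal well above background on that array, 18.2. *Fcnb*, the ficolin of neutrophils and monocytes, stayed below background with signals between 3.39 and 8.13 at its 2 probes. The mannose-binding lectins are the hepatocyte counterparts of the ficolins. *Mbl1* read 166 and 325 (log2 ratio 0.79), and *Mbl2* read 11726 and 15909 (log2 ratio 0.26). Both were short of the threshold, and *Mbl2* was at -0.03 in the normalized values deposited by the authors. Over the 6 detected recognition genes the median was 2.38, and all 6 were above 0.

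Promoters were searched for all complement genes with RefSeq sequence. Shown are those of *C1qb*, *C1qc* and *Fcna*, the 3 genes past the threshold that held the letters marked below. RefSeq sequence on build GRCm38.p6 was present for 26 of the 35 genes, and *C1qa* was not among them. The 250 bases before the start are shown 5′ to 3′ on the gene's strand. Capitals mark GAGGAA, or TTCCTC where it lies on the opposite strand, a core bound by PU.1, the transcription factor of the myeloid lineage.
C1qb, chr4:136886201-136886450, minus strand: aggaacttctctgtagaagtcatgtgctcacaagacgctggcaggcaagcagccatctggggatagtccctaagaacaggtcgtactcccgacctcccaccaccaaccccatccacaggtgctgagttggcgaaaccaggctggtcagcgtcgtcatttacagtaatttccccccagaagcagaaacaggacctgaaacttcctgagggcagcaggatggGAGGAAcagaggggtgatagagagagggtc
C1qc, chr4:136892915-136893164, minus strand: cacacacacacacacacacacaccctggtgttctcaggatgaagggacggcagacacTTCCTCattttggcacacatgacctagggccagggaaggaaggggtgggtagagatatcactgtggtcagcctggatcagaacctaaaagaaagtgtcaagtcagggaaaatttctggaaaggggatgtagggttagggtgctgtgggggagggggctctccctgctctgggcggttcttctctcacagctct
Fcna, chr2:25627975-25628224, minus strand: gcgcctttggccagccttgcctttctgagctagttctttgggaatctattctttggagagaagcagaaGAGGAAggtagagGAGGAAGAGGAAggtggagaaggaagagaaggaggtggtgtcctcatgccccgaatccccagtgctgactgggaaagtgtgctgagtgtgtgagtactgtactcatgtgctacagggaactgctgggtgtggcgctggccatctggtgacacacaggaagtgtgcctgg

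In *C1qb* the match ended 25 bases before the start, in *C1qc* it lay 193 to 188 bases before it on the opposite strand, and *Fcna* held 3 matches, 2 of them adjoining. The letters were searched on both strands and occurred in 25.9% of the 27025 genes of the promoter table. They occurred in 5 of the 26 complement genes with a promoter (19.2%). By source, they occurred in 4 of 9 myeloid-made genes (*C1qb*, *C1qc*, *Fcna* and *Itgam*), in 0 of 13 hepatocyte-made genes, and in *Cd59a*. They were not in the windows of *Cfp* or *Cd55*. The 3 further motifs, also searched on both strands, were found in few genes. The interferon-stimulated response element, searched as GAAA followed after 2 free bases by GAAA, was present in *Cd59a* alone (3.46% of all genes), the STAT letters TTCNNNGAA in *C7*, *C8a* and *Masp2* (8.13%), and the C/EBP letters TTGCNNAA in *C3*, *C9* and *Fcnb*, and in *C1s1* (10.8%). A match is a string of letters and not a measured site.

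Over single probes, 9 of the 45 detected were higher past the threshold and 0 were lower, against 2.94% higher and 2.49% lower among all 30275 detected probes. The 9 probes belong to the same 6 genes, with 3 probes of *Cd55* and 2 of *Cfp*, and are not further evidence. The *Cd55* probes were dim in control and were detected through *Drp1*LiKO alone. In 8 of the 10 genes with several detected probes, all probes lay above 0. These genes include *Cd55*, whose detected probes stand at bounds. The share among all genes with several detected probes was not computed, so this count does not set the complement genes apart.

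**Figure D2:**
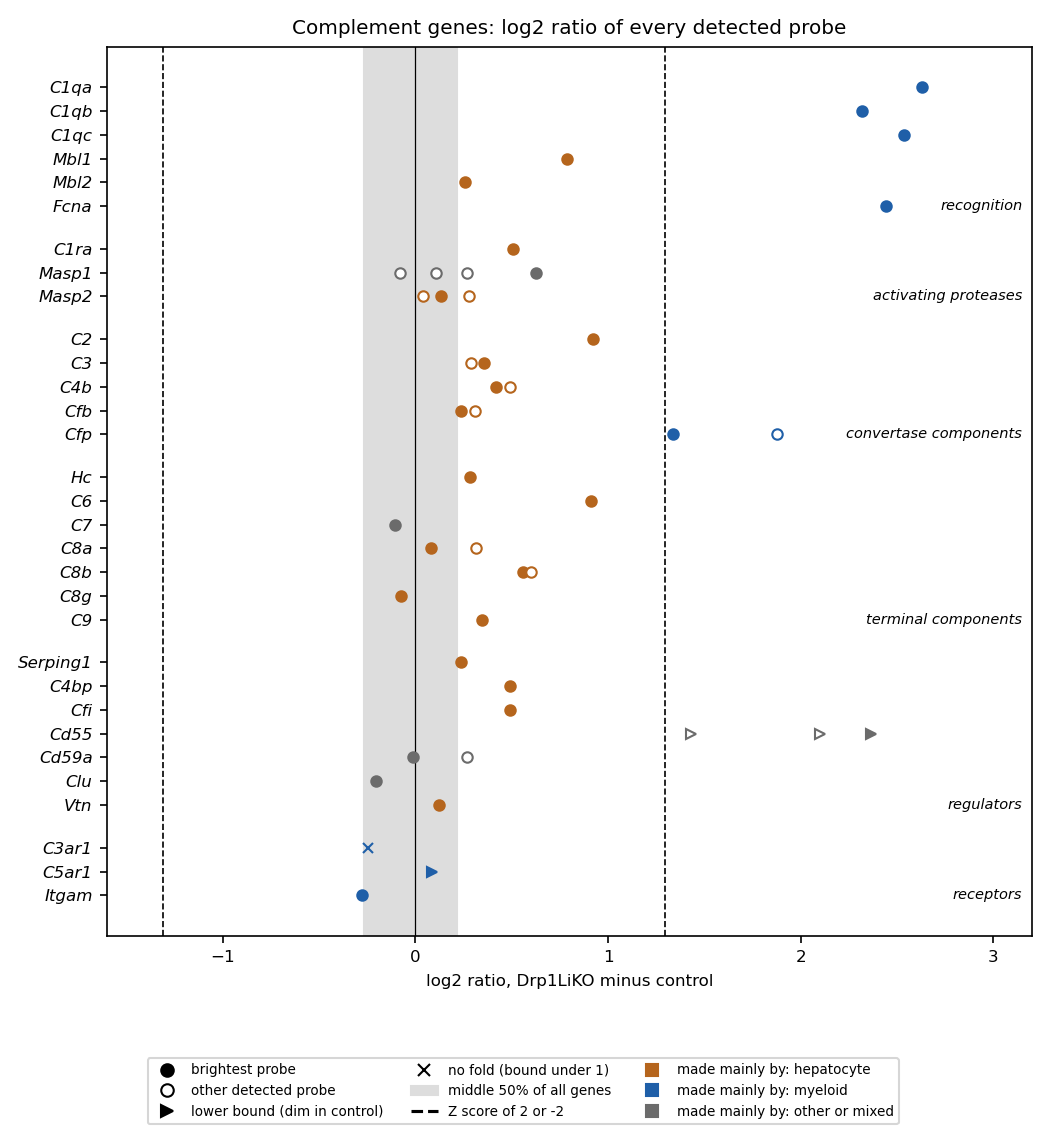
Log2 ratio, Drp1LiKO minus control, of all 45 detected probes of the complement genes, grouped by role, with filled symbols for the brightest probe of a gene and open symbols for its other probes. The gray band holds the middle 50% of all detected genes, dashed lines mark Z scores of 2 and -2, and triangles are lower bounds because the control signal was dim. Past the upper line lie the C1q chains, Fcna, both Cfp probes and all 3 Cd55 probes.

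Of the activating proteases, which the sensors switch on, 3 were detected and none passed the threshold. Their median log2 ratio was 0.50. *C1ra*, a protease of the C1 complex, read 2244 and 3611 (log2 ratio 0.50). *C1s1*, its partner, read 4221 and 4654 (log2 ratio -0.04). The mouse genome holds a close copy of each (*C1rb*, *C1s2*), and the probes may not separate the copies. *Masp2*, the lectin pathway protease that cleaves C4 and C2, read 2254 and 2803 (log2 ratio 0.13, with its other probes at 0.28 and 0.04). The 4 detected probes of *Masp1* disagreed. The brightest read 487 and 853 (log2 ratio 0.63), and the others were at 0.11, -0.08 and 0.27. Each *Masp1* probe was designed to a different transcript record. *Cfd*, the factor D protease known best from fat cells, was dim at both probes, with signals between 3.05 and 11.7.

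Among convertase components, the central genes were slightly higher and properdin stood apart. *C3*, the protein on which all pathways meet, read 102508 and 148868 (log2 ratio 0.36, with its other probe at 0.29). *C4b*, part of the classical convertase, read 18244 and 27680 (0.42, other probe 0.49). *Cfb*, factor B, the protease of the alternative convertase, read 17893 and 23892 (0.23, other probe 0.31). The probes within each of these genes differed by at most 0.07. The *C4b* probes may also read the near-identical *C4a*, whose own probe read 698 and 1276 (0.69).

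*C2*, the serine protease of the classical convertase, read 3473 in control and 7460 in *Drp1*LiKO. Its log2 ratio of 0.92 (1.89-fold, Z score 1.42) was the highest among the hepatocyte-made genes, with *C6* close to it at 0.91. *C2*, *Cfb* and *C4b* lie together within 134 kb of chromosome 17, and their ratios spanned 0.69. *Cfp* encodes properdin, which stabilizes the alternative convertase and is made by myeloid cells. It read 275 and 789, a log2 ratio of 1.34 (2.53-fold) that was close to the threshold with a Z score of 2.06. Its other probe, 34.2 and 143, gave 1.88.

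None of the 7 terminal components, which assemble the membrane pore, passed the threshold. *Hc* (complement C5) read 1372 and 1893 (log2 ratio 0.28), *C6* read 99.4 and 212 (0.91), and *C7* read 167 and 177 (-0.10). *C6* and *C7* lie close together on chromosome 15 and differed by 1.01 in their ratios. The subunits of C8 were also uneven. *C8a* read 909 and 1091 (0.08, other probe 0.31), *C8b* read 2405 and 4019 (0.56, other probe 0.60), and *C8g* read 16104 and 17369 (-0.07). *C9*, which forms the wall of the pore, read 8575 and 12384 (0.35). The median of the 7 was 0.28.

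Of the 7 regulators, *Cd55* alone passed the threshold. *Cd55*, decay-accelerating factor, is a membrane protein that takes convertases apart. Its brightest probe was not well above background in control at 12.9 and read 106 in *Drp1*LiKO, so the signal was at least 5.14-fold higher against the lowest control signal well above background. The other 2 detected probes were also dim in control, at 17.4 and 15.4, and read 88.7 and 55.8 in *Drp1*LiKO, at least 4.29-fold and 2.70-fold higher. All 3 detected probes passed, while a probe for another transcript was dim on both arrays.

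The other regulators did not pass the threshold. *Serping1*, the C1 inhibitor, read 10776 and 14410 (log2 ratio 0.24). *C4bp*, which binds C4b, read 6545 and 10447 (0.49), and *Cfi*, the protease that inactivates C3b and C4b, read 11737 and 18744 (0.49). Both plasma inhibitors of the pore were near the median of all genes. *Vtn* (vitronectin) read 30696 and 37946 (0.12), and *Clu* (clusterin) read 265352 and 261008 (-0.21). *Cd59a*, the membrane inhibitor of the pore, read 1609 and 1809 (-0.01, other probe 0.27).

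The receptors gave no usable fold. *C3ar1*, the C3a receptor, was dim in control at 7.27 and read 17.4 in *Drp1*LiKO, below the lowest control signal well above background, so no fold is given. *C5ar1*, the C5a receptor, read 4.19 (dim) and 22.0, at least 1.06-fold higher. *Itgax*, an alpha chain of complement receptor 4, was dim at all 3 probes.

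*Itgam* encodes the alpha chain of complement receptor 3 on macrophages and neutrophils, and its value rests on an unusual probe. The bright probe read 4132 and 3869 (log2 ratio -0.28) and the other read 13.2 and 9.15, dim on both arrays. The first 30 bases of each are shown with a run of repeated CA in capitals.
Itgam bright probe, chr7:135261755-135261814, plus strand: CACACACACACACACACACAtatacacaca
Itgam dim probe, chr7:135212140-135212199, plus strand: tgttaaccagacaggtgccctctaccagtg

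The repeat of the bright probe was 20 bases long, against at most 8 in any other probe of the complement genes. On the whole array, 94 probes held a dinucleotide repeat of that length or more, and 100% of them were well above background on both arrays. Among the other 56506 probes, 48.1% were in control and 52.0% in *Drp1*LiKO. The median signal of the 94 was 9628 in control and 10663 in *Drp1*LiKO, against 16.7 and 20.1 for the others. What the bright *Itgam* probe bound was not tested, and no change of *Itgam* is read from it.

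Grouped by the cells that mainly make them, the 18 detected hepatocyte genes and the 8 detected myeloid genes differed in size of change. Of the hepatocyte genes, 17 were above 0 and 0 passed the threshold, with a median log2 ratio of 0.35 and the middle 50% between 0.24 and 0.50. In comparison, 44.5% of all genes were above 0. The ratios of 15 of the 18 exceeded 2 expected spot SDs, a limit that covers only the noise between spots. The share of all genes past that limit was not computed, so this count does not set the hepatocyte genes apart. Of the 18, 14 lay above the upper quartile of all genes. Restricted to signals of at least 1000 on both arrays, 15 hepatocyte genes had a median of 0.35, against -0.06 for all 7594 such genes, whose middle 50% lay between -0.20 and 0.13. Of the 8 myeloid genes, 5 passed, and the median was 1.83, or 2.32 without *Itgam*. The 3 detected myeloid genes outside the study's list, *C3ar1*, *C5ar1* and *Itgam*, did not pass, although *C5ar1* did when dim signals were left without a floor. Over all 31 genes the median was 0.36.

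Most markers of Kupffer cells and macrophages were also higher in *Drp1*LiKO past the threshold. Of 18 Kupffer cell and macrophage markers, 16 were detected, all 16 were above 0 and 13 passed, with a median log2 ratio of 2.41. Their summed signal was 11645 in control and 32438 in *Drp1*LiKO. The brightest were *Cd14*, which read 6407 and 8419 (0.21), and *Cd68*, which read 2346 and 9593 (1.85). *Timd4* and *Cd163* were dim on both arrays. *Clec4f*, *Mrc1* and *Laptm5* were dim in control alone, so they were detected through *Drp1*LiKO and stand at bounds.

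Part of the markers of endothelial and stellate cells also passed. Of 13 endothelial markers 12 were detected and 7 passed (median 1.46, summed signal 4594 and 9876), the brightest being *Egfl7*, which read 3773 and 6941 (0.70), and *Oit3*, which read 222 and 561 (1.16). *Vwf* was dim on both arrays. Of 11 stellate and mesenchymal markers 9 were detected, 8 were above 0 and 4 passed (median 1.04, summed signal 21958 and 30159), the brightest being *Acta2*, which read 21437 and 24640 (0.02), and *Dcn*, which read 203 and 3848 (4.06). Above background in control were 9 of the 12 detected endothelial markers and 5 of the 9 stellate and mesenchymal ones. The others were detected in *Drp1*LiKO alone and stand at bounds, which favors ratios above 0 in these counts and medians. The part of macrophages, endothelial and stellate cells in the complement values was not tested.

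The hepatocyte label was borne out by its markers, with all 18 detected and a summed signal of 873096 and 971425. Their median log2 ratio was 0.26, with 11 above 0, 7 below 0 and 2 past the threshold. Single ratios ran from -1.05 to 2.03. Above background on both arrays were 16 of the 18, and *Pck1* was dim in control. *Serpina1a* read 338486 and 339334 (-0.18) and *Alb* read 219613 and 266703 (0.10). Of 9 neutrophil markers 4 were detected and 1 passed, and 5 were dim on both arrays, *S100a8* and *S100a9* among them. The brightest were *Csf3r*, which read 16566 and 21213 (0.17), and *Elane*, which read 635 and 623 (-0.21). Only these 2 were above background in control. T and NK cell markers were detected in 1 of 8 cases, B cell markers in 3 of 6 and dendritic cell markers in 1 of 6, with none past the threshold. Of 8 monocyte markers 5 were detected, 3 above 0 and 2 below, and 2 passed the threshold, with *Ccr2* dim on both arrays. The brightest monocyte markers were *Fn1*, which read 120035 and 137476 (0.01), and *Plac8*, which read 285 and 2404 (2.89). Cholangiocyte markers were detected in 4 of 6 cases with none past the threshold.

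**Figure D3:**
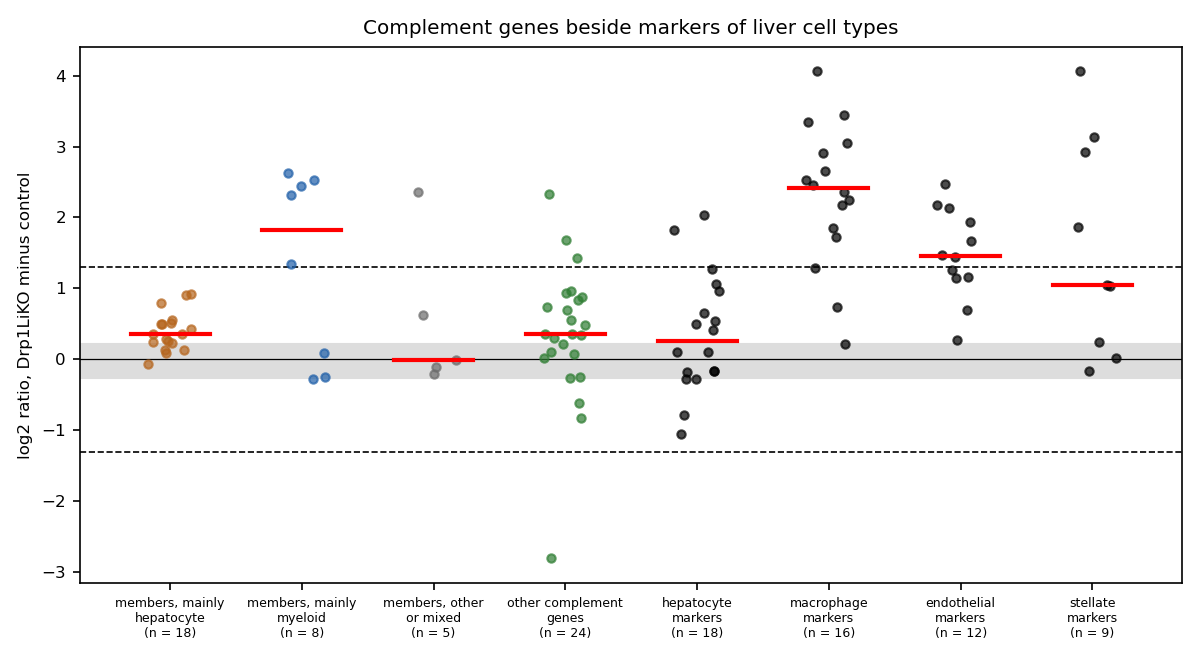
Log2 ratio, Drp1LiKO minus control, of detected complement genes by main source, of other complement genes and of marker lists of liver cell types, with 1 point per gene, red bars for medians, a gray band for the middle 50% of all genes and dashed lines at Z scores of 2 and -2. Genes dim on 1 array are drawn at their bound. The hepatocyte-made genes cluster around 0.35, the myeloid-made genes have a median of 1.83 and the macrophage markers one of 2.41.

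The rest of the pathway was read from a list of 30 other complement genes, of which 29 had a probe and 24 were detected. Of these, 19 were above 0, the median was 0.36, and 3 were higher and 1 lower past the threshold. *Cd93*, a receptor of myeloid and endothelial cells once described as a C1q receptor, read 468 and 2673 (log2 ratio 2.33). *Itgb2*, the beta chain that pairs with the *Itgam* and *Itgax* products, read 29.0 and 88.7 (1.43). *Vsig4*, the C3b receptor of Kupffer cells, was dim in control at 14.7 and read 66.4, at least 3.21-fold higher. *Crp*, a pentraxin that can bind C1q, read 92.6 in control and was dim in *Drp1*LiKO at 7.66, at least 7.02-fold lower. That probe was designed to an Ensembl transcript (chr1:174762815-174762874), while the probe of the RefSeq transcript (chr1:174629452-174629511) was dim on both arrays at 7.85 and 7.81. The lower value of *Crp* thus rests on the Ensembl record alone, and whether its probe reads the pentraxin transcript was not determined.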

How the data were processed

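RNA of 1 control and 1 *Drp1*LiKO hepatocyte culture was labeled with Cy3 and hybridized to 60-base mouse Agilent arrays on the same slide. The authors deposited the scanner output, in which Feature Extraction (9.5.1.1 in the submitters' processing notes, 10.7.1.1 in the file header) gives each spot's intensity, corrected for background. A second deposited table holds normalized intensities (median 19.1 in each column), made by a method not given in the sources used here. Its *Drp1*LiKO values ranked the probes differently from the scanner signals of that array (Spearman correlation across probes 0.958), so it served as an alternative.

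Spots that were controls or outliers were dropped. The mean log2 signal of a probe was set against its array's 75th percentile (signals of 313 and 356). A dim signal was replaced by the lowest one well above background (18.2 and 15.0), and its ratio is a bound. A gene was its brightest detected probe. Every complement gene was named, with *Dnm1l*, the other complement genes past the threshold and the 2 brightest genes of the marker lists described. Further markers, and the individual motif matches, were named after their values were seen. The value of 1 gene is not reported here. Members and lists were chosen with earlier results of these data known. Scaling and calls were tested on simulated data with 18356 genes, where 200 of 200 changed genes were recovered and 8 other genes were called. The changed genes lay above the 75th percentile of the control array and moved by 2 or 3 on the log2 scale. Recovery of dim genes, of bounds and of smaller changes was therefore not tested. The simulated array was the control array with noise between spots added, so neither count covers variation between cultures. Tools were Python 3.11.15, numpy 2.4.6, pandas 2.3.3, matplotlib 3.10.9, R 4.3.3 and limma 3.58.1. Alternatives tried were normexp background correction (offset 50), quantile normalization, spike-in scaling, the deposited table, 2 other filters, no floor, outlier spots kept, the median of a gene's probes and 3 other thresholds.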

Additional observations from a re-analysis of the deposited data

How the results depend on the processing

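The count of complement genes higher past the threshold was 6 and ranged from 5 to 9 over 13 ways of processing, and the count lower was 0 in all 13. *C1qa*, *C1qb*, *C1qc* and *Fcna* were past it in 13 of 13, and *Cfp* in 12 of 13 (not without a floor). *C2* was past it in 4 of 13, *C6* in 2 of 13 and *Mbl1* in 1 of 13. *Cd55* was past it in 12 of 12 and *C5ar1* in 1 of 12 (without a floor). Both were dim in control, so the setting that required signal above background on both arrays left them out. With normexp background correction the log2 ratio of *Fcna* was 1.27 and that of *Cd55* 0.96, still past the threshold of that setting. The median over all complement genes was 0.36, and 0.50 in the deposited values and 0.49 without a floor. The median of hepatocyte-made genes was 0.35 and 0.42 in the deposited values. The median of myeloid-made genes was 1.83. It was 1.23 with normexp, 2.38 for probes above background on both arrays, 0.71 with no filter on dim probes (where the median of all genes was -0.47) and 2.26 without a floor. In settings chosen after seeing the data it was 2.32 without *Itgam* and -0.25 without the genes of the study's list. This last value is that of *C3ar1* at the floor, for which no fold is given, and has no direction. The other complement genes past the threshold numbered 4, and 2 for probes above background on both arrays, 8 with no filter and 10 with a robust Z score. Of 276 values of single genes under the alternatives, 266 kept their direction and 40 moved by more than the noise between spots. The causes were not tested. Dim probes limit the values of *Cd55*, *C3ar1*, *C5ar1* and *Fcna*. No paired analysis was possible because there was 1 array per genotype.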
